A study of Homo sapiens with 40 samples.

Results

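The cells given EGF for 12 h (EGF-BT474) were set against cells given vehicle for 12 h, across all genes. The comparison used 4 of the 40 RNA-seq libraries of the study, 2 titled as EGF and 2 titled as control at 12 h, and they were chosen by cell line and title alone. BT474 is a HER2-positive, hormone receptor-positive luminal breast cancer line sensitive to trastuzumab, and BT474R is 1 trastuzumab-resistant clone derived from it. The study followed both lines at T0 and after 1, 12 and 24 h of EGF, heregulin (HRG) or vehicle, with 2 libraries in each of 20 groups. All cells, controls included, were serum starved overnight, and T0 was collected at the end of that step. The ligand groups then received 50 ng/mL EGF or 10 ng/mL HRG in fresh starvation medium, and the vehicle group received water in the same fresh medium. The study ran each treatment in duplicate and does not say that the duplicates came from separate experiments, so the p-values measure the spread between duplicates, which may be largely technical.

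EGF binds EGFR, which signals as a homodimer or paired with HER2 or HER3. The paired receptors switch on the MAP kinase cascade, which turns on immediate early transcription factors within the first hour and, after them, the phosphatases and adaptors that damp the signal. They also switch on PI3K and AKT, which keep FOXO factors out of the nucleus and, through mTORC1, favour SREBP-driven lipid synthesis and ribosome production. Cyclin D and CDK4/6 then release E2F factors from RB, and E2F turns on the genes of DNA replication.

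The vehicle libraries held 27709699 and 23694997 counted reads and the EGF libraries 22622837 and 20662109. Levels are given as CPM, counts per 1000000 counts of a library scaled by edgeR's TMM factor, and they are not divided by gene length, so they are compared between libraries and not between genes. A gene with 3 counts or fewer lay at or below 0.108 to 0.145 CPM in these 4 libraries, a floor that covers counting error only. Replicates differed by more than counting noise, with a median chi-square per gene of 0.676 in the vehicle pair and 0.613 in the EGF pair against 0.455 from counting alone. All 10 markers of luminal HER2-positive epithelium were present, and their summed level was 15201 to 15409.7 CPM in the vehicle libraries and 16173 to 16313 CPM in the EGF libraries. The fibroblast markers summed to 95.6 to 103 CPM in the vehicle libraries and 83.5 to 91.3 CPM in the EGF libraries, nearly all of it COL1A1, with COL1A2, DCN, PDGFRA and PDGFRB at the floor in all 4 libraries, and the part of this difference in the results was not tested. Endothelial markers summed to 13.7 to 16.7 CPM in the vehicle libraries and 15.2 to 17.3 CPM in the EGF libraries, nearly all of it VWF, with PECAM1, KDR and TEK at the floor. Leukocyte markers summed to 3.05 to 3.83 CPM in the vehicle libraries and 3.36 to 4.62 CPM in the EGF libraries, with PTPRC, CD3E and CD14 at the floor in all 4 libraries.

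EGF changed many genes by small amounts. Of 25146 genes tested, 2273 rose (9.04%) and 1757 fell (6.99%) at an adjusted p below 0.05 (edgeR's quasi-likelihood test, Benjamini-Hochberg adjustment over all genes tested). Among the called genes the median size of the log2 fold change was 0.31, and 167 rising and 190 falling genes changed by 2-fold or more. A change of 4-fold or more was found for 34 rising and 50 falling genes. In each direction most of these genes had a mean below 1 CPM over the 4 libraries, so their folds rest on low counts. Both EGF libraries lay above both vehicle libraries in all 2273 rising genes and below them in 1756 of the 1757 falling genes. Without regard to the test, 26.3% of all genes tested had both EGF libraries above and 28.9% had both below. The count was smaller when any 1 library was left out, and no called gene was called in the opposite direction. In those runs the lone library of a group was assumed to vary like the other groups.

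The 15 rising genes of largest fold change were MAGEC1, AQP3, MUC2, GSDMA, GDF15, GAL, H19, KRT16, MUC5AC, AQP5, AREG, PDE10A, EGR3, ALDH1A3 and FIBCD1. They include the water channels AQP3 and AQP5, the gel-forming mucins MUC2 and MUC5AC, and the secreted factors GDF15, GAL and AREG. AQP5, a water channel of glandular epithelia, measured 0.745 and 0.790 CPM in the vehicle libraries and 3.32 and 2.76 CPM in the EGF libraries (log2 fold change 1.99 ± 0.28, edgeR adjusted p = 1.33e-06). GAL, the neuropeptide galanin, measured 0.284 and 0.541 CPM in the vehicle libraries and 1.93 and 1.58 CPM in the EGF libraries (log2 fold change 2.11 ± 0.36, edgeR adjusted p = 2.88e-05). FIBCD1, a membrane receptor that binds acetyl groups on chitin, measured 2.91 and 3.49 CPM in the vehicle libraries and 11.2 and 10.96 CPM in the EGF libraries (log2 fold change 1.80 ± 0.13, edgeR adjusted p = 1.69e-13). In each of these 3 genes the lower EGF library was more than 2-fold above the higher vehicle library.

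The 15 falling genes of largest fold change were EPHA3, NDST4, PTPRQ, KCNJ13, CYP26A1, GRIK2, IGFBP3, SOCS2-AS1, MTUS1-DT, CBLN2, LEF1, MST1P2, COL6A4P2, CFAP61 and FHOD3. CBLN2, a secreted synaptic organizer, had the tightest estimate among them, with 43.2 and 41.2 CPM in the vehicle libraries and 13.7 and 13.03 CPM in the EGF libraries (log2 fold change -1.66 ± 0.084, edgeR adjusted p = 9.26e-18). KCNJ13, an inward rectifier potassium channel, measured 11.1 and 11.98 CPM in the vehicle libraries and 2.47 and 3.41 CPM in the EGF libraries (log2 fold change -1.98 ± 0.16, edgeR adjusted p = 3.69e-12). IGFBP3, which binds insulin-like growth factors in the extracellular space, measured 4.15 and 4.08 CPM in the vehicle libraries and 1.26 and 1.28 CPM in the EGF libraries (log2 fold change -1.69 ± 0.23, edgeR adjusted p = 5.66e-07). FHOD3, an actin-organizing formin, measured 7.13 and 5.78 CPM in the vehicle libraries and 2.06 and 2.62 CPM in the EGF libraries (log2 fold change -1.48 ± 0.18, edgeR adjusted p = 4.67e-08). The vehicle and EGF libraries did not overlap in any of the 30 genes, which the rule for naming them required. The counting is not stated to use strand or to set aside reads with several matches, so SOCS2-AS1 and MTUS1-DT may hold reads of the genes they overlap or face, and the pseudogenes MST1P2 and COL6A4P2 and the rising genes with numbered copies, H19, MUC2 and MUC5AC, may share reads with their relatives.

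**Figure D1:**
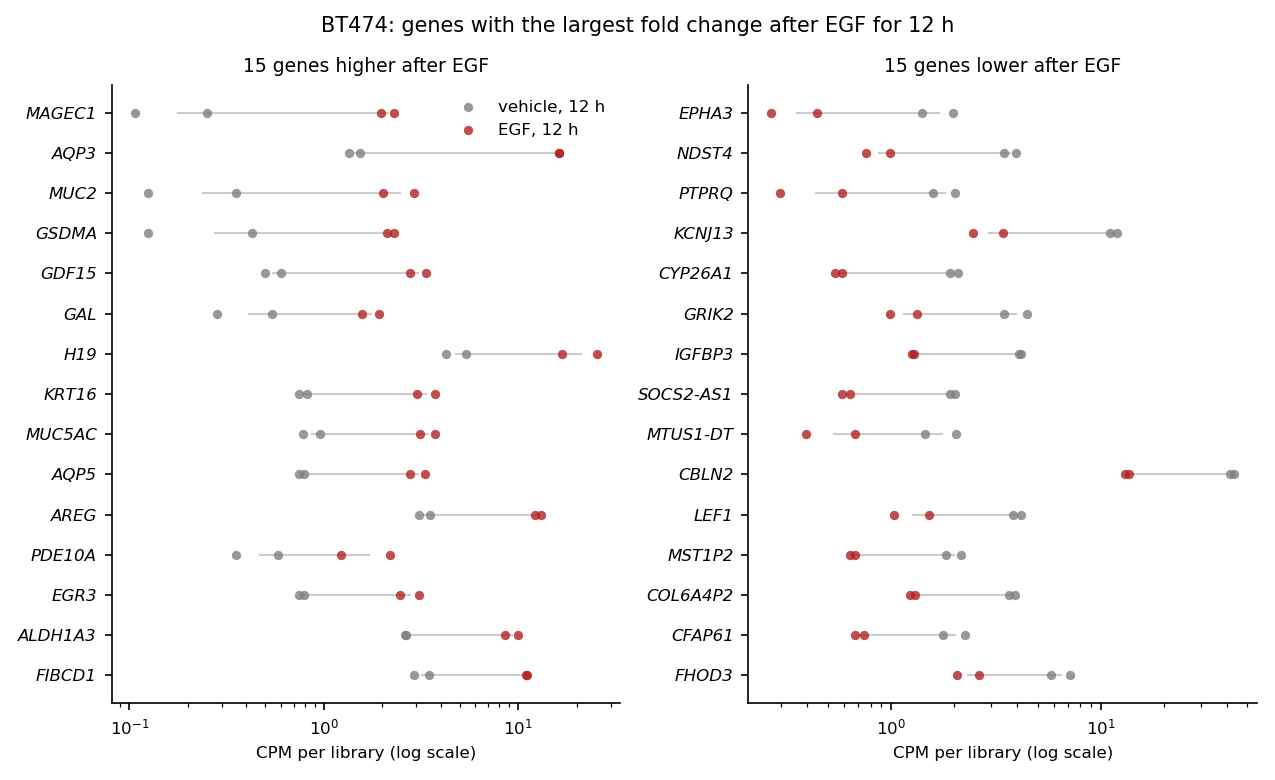
Level of the 30 genes with the largest fold change, on a log scale in CPM, with each library a point (grey, vehicle; red, EGF) and a line joining the group means. The rising genes started near or below a few CPM in the vehicle libraries, and in every gene the 2 EGF points lie apart from the 2 vehicle points.

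The genes with the largest change in CPM were abundant genes with modest folds. The 8 that rose were ACTB, SCD, FASN, ABCC3, RPL19, FLNA, KRT8 and GAPDH, and the 8 that fell were IGFBP5, RNR1, PGR, NEAT1, GATA3, STS, ZNF652 and COL12A1. ABCC3, an organic anion efflux pump, had the largest fold among them at 438 and 453 CPM in the vehicle libraries and 1071 and 1025 CPM in the EGF libraries (log2 fold change 1.23 ± 0.048, edgeR adjusted p = 2.65e-21). FLNA, which crosslinks actin, measured 1862 and 1956 CPM in the vehicle libraries and 2449 and 2470.5 CPM in the EGF libraries (log2 fold change 0.37 ± 0.028, edgeR adjusted p = 1.51e-12). IGFBP5, an insulin-like growth factor-binding protein, measured 7498 and 7301 CPM in the vehicle libraries and 5443 and 5780.4 CPM in the EGF libraries (log2 fold change -0.40 ± 0.042, edgeR adjusted p = 2.24e-09). STS, the steroid sulfatase that frees estrone and DHEA from their sulfates, measured 296 and 273 CPM in the vehicle libraries and 167 and 179 CPM in the EGF libraries (log2 fold change -0.72 ± 0.057, edgeR adjusted p = 2.88e-12). RPL19, RNR1 and NEAT1 were the least firm of these calls: the adjusted p of RPL19 was 0.0844 without vehicle replicate 1, 0.131 without vehicle replicate 2, 0.055 without EGF replicate 1, 0.112 without EGF replicate 2, that of RNR1 was 0.167 without vehicle replicate 2, 0.111 without EGF replicate 2, and that of NEAT1 was 0.118 without vehicle replicate 2, 0.267 without EGF replicate 2. With DESeq2 the adjusted p was 0.104 for RPL19, 0.117 for RNR1 and 0.177 for NEAT1, and that of NEAT1 was 0.159 in 1 fit of all 40 libraries.

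The gene lists are summarised in the plot of the share of each list that passed the test. Over all genes tested 9.04% rose and 6.99% fell, the shares to set beside the list counts below. Almost every measured gene of DNA replication and S phase rose, and most genes of sterol and fatty acid synthesis did too. Smaller shares of the members rose in amino acid transport, ribosome biogenesis, mitosis, keratins, the protease, integrin and laminin list, the channel and carrier list and the hypoxia list. FOXO targets and the cell cycle inhibitors had more falling than rising members. The ERBB, luminal, ephrin and retinoic acid lists moved in both directions.

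**Figure D2:**
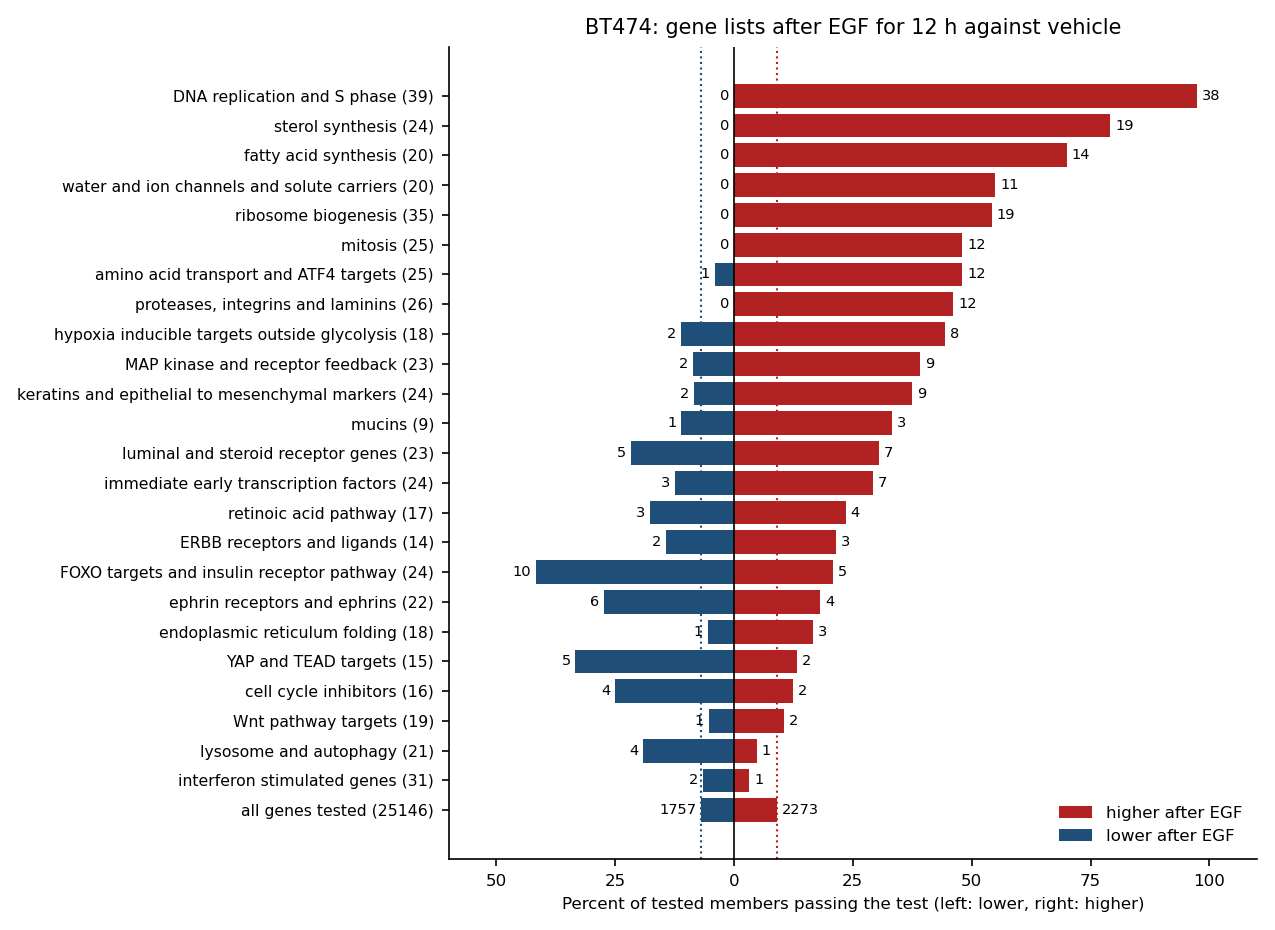
Percent of the tested members of each list that rose (red, to the right) or fell (blue, to the left) after EGF, with the number of genes at each bar end, the number tested in parentheses, and dotted lines at the shares of all genes tested, 9.04% and 6.99%. The S phase bar reaches furthest, with 38 of 39 genes higher.

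Of 39 genes of DNA replication and S phase, 38 rose, with a median log2 fold change of 0.40 against -0.03 over all genes tested. The remaining gene, CCND2, was barely present, with 0.284 and 0.125 CPM in the vehicle libraries and 0.224 and 0.247 CPM in the EGF libraries. Leaving out any 1 of the 4 libraries left 36 or 37 genes called. The summed level of the list was 2975 and 2946 CPM in the vehicle libraries and 3880.2 and 4006 CPM in the EGF libraries, so the groups did not overlap. In bulk RNA a larger share of cells in S phase and more of these transcripts per cell cannot be told apart.

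The genes that rose include G1 cyclins, helicase loaders, polymerase subunits and enzymes of nucleotide supply. Among G1 regulators, CCND1, the cyclin that partners CDK4 and CDK6, measured 582 and 604 CPM in the vehicle libraries and 779.7 and 827 CPM in the EGF libraries (log2 fold change 0.44 ± 0.040, edgeR adjusted p = 8.15e-11). CCNE1, the cyclin of CDK2, measured 10.5 and 12.02 CPM in the vehicle libraries and 15.8 and 16.4 CPM in the EGF libraries (log2 fold change 0.52 ± 0.10, edgeR adjusted p = 0.000122). E2F1, the transcription factor released from RB, measured 19.9 and 21.3 CPM in the vehicle libraries and 31.2 and 30.9 CPM in the EGF libraries (log2 fold change 0.59 ± 0.070, edgeR adjusted p = 3.21e-08). All 3 kept their call without any 1 of the 4 libraries.

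All 6 subunits of the MCM2-7 helicase rose, from 0.37 for MCM4 to 0.61 for MCM5 on the log2 scale. MCM5 measured 57.1 and 58.3 CPM in the vehicle libraries and 86.8 and 88.8 CPM in the EGF libraries (log2 fold change 0.61 ± 0.055, edgeR adjusted p = 8.68e-11) and MCM6 108 and 107 CPM in the vehicle libraries and 156 and 162 CPM in the EGF libraries (log2 fold change 0.57 ± 0.041, edgeR adjusted p = 3.23e-13). MCM10, which links the helicase to polymerase alpha, measured 38.1 and 35.4 CPM in the vehicle libraries and 56.1 and 60.5 CPM in the EGF libraries (log2 fold change 0.66 ± 0.058, edgeR adjusted p = 3.39e-11). CDC6 and CDT1, which load the helicase, rose by 0.53 and 0.39 on the log2 scale, and CDC45 and the 4 GINS subunits, which activate it, rose by 0.21 (GINS1) to 0.54 (CDC45).

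RRM2, the regulatory subunit of ribonucleotide reductase that supplies deoxynucleotides, had the largest rise of the list with 125 and 117 CPM in the vehicle libraries and 187 and 199 CPM in the EGF libraries (log2 fold change 0.67 ± 0.048, edgeR adjusted p = 1.33e-13). Its partner RRM1, which is made throughout the cycle, rose by 0.25 ± 0.045 on the log2 scale. The sliding clamp PCNA measured 123 and 119 CPM in the vehicle libraries and 152 and 158 CPM in the EGF libraries (log2 fold change 0.35 ± 0.046, edgeR adjusted p = 2.31e-07). The clamp loader subunits RFC2 to RFC5 rose by 0.32 to 0.47, and both subunits named of polymerase alpha rose, POLA1 by 0.21 and POLA2 by 0.50. CHAF1A and CHAF1B, which place histones on new DNA, both rose by 0.43.

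Promoters of S phase genes often hold the E2F motif, and those of 5 genes that rose are shown for that reason. The sequences are from RefSeq (GRCh38.p14), 5′ to 3′ on the strand of the gene, and capitals mark matches to TTTNGCGC on either strand. The motif was chosen after the values were seen. E2F1 is from chr20:33686386-33686465 on the minus strand, CDC25A, the phosphatase that activates CDK2, from chr3:48188418-48188497 on the minus strand, and MCM6 from chr2:135876476-135876575 on the minus strand. MCM7 is from chr7:100101398-100101477 on the minus strand and POLA2 from chr11:65261873-65261952 on the plus strand. In MCM6 a match on each strand overlaps the other, so the capitals there run over both.
E2F1: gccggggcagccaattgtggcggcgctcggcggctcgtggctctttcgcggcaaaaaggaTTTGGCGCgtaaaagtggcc
CDC25A: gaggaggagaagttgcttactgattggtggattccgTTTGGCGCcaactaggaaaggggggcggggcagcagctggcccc
MCM6: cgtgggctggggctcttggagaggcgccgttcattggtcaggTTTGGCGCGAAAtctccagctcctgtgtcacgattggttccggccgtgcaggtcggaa
MCM7: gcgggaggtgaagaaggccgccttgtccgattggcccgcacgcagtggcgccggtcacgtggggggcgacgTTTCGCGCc
POLA2: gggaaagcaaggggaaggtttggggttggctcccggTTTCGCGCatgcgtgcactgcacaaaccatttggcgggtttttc

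Of the 38 S phase genes that rose, 32 had a promoter among the RefSeq windows searched, which do not cover all chromosomes (see the processing section). A window ran from 250 bases before to 50 bases after the start. In 13 of those 32 genes (40.6%) a window held TTTNGCGC. The share was 2.17% of all 27305 genes with a window, 3.05% of the 15526 tested genes with a window, 4.97% of the 1730 rising genes and 3.62% of the 1271 falling genes with one. The 13 genes were CDC25A, E2F1, E2F2, MCM2, MCM3, MCM6, MCM7, CDC6, CDT1, GINS1, RFC5, POLA1 and POLA2. A match is a description of letters in the window and shows no binding.

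Genes of mitosis moved less at 12 h. Of 25 members, 12 rose, with a median log2 fold change of 0.13. The count was 6 without EGF replicate 2 and 8 to 11 without another of the 4 libraries. BUB1B, a kinase of the spindle checkpoint, measured 45.6 and 43.7 CPM in the vehicle libraries and 51.7 and 58.5 CPM in the EGF libraries (log2 fold change 0.30 ± 0.061, edgeR adjusted p = 0.000323). CCNA2, the cyclin of S and G2 phase, measured 37.1 and 34.5 CPM in the vehicle libraries and 44.6 and 43.3 CPM in the EGF libraries (log2 fold change 0.29 ± 0.059, edgeR adjusted p = 0.000344). CCNB1, the mitotic cyclin, measured 78.4 and 82.8 CPM in the vehicle libraries and 85.99 and 86.9 CPM in the EGF libraries and did not pass (log2 fold change 0.10 ± 0.047, edgeR adjusted p = 0.148). TOP2A, which untangles chromosomes before they separate, measured 278 and 276 CPM in the vehicle libraries and 281 and 277 CPM in the EGF libraries, and the 2 pairs of libraries overlapped (log2 fold change 0.01 ± 0.039, edgeR adjusted p = 0.924).

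The cell cycle inhibitors moved in both directions. Of 16 members, 2 rose and 4 fell, and 2 became 1 without vehicle replicate 2 or EGF replicate 2. CDKN1A (p21), which binds cyclin-CDK complexes, rose, with 7.77 and 6.74 CPM in the vehicle libraries and 15.9 and 13.8 CPM in the EGF libraries (log2 fold change 1.03 ± 0.12, edgeR adjusted p = 1.32e-08). RBL2 (p130), the RB relative that represses E2F targets in quiescent cells, fell, with 129 and 131 CPM in the vehicle libraries and 89.1 and 89.2 CPM in the EGF libraries (log2 fold change -0.54 ± 0.047, edgeR adjusted p = 2.98e-11). BTG2, an antiproliferative gene, fell, with 123 and 122 CPM in the vehicle libraries and 102 and 97.5 CPM in the EGF libraries (log2 fold change -0.30 ± 0.050, edgeR adjusted p = 2.25e-05), and CCNG2, a cyclin linked to cell cycle arrest, fell by 0.22 on the log2 scale.

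Immediate early transcription factors moved in both directions at 12 h. Of 24 immediate early transcription factors, 7 rose and 3 fell, with a median log2 fold change of 0.07, and 7 became 4 without vehicle replicate 2 and 5 without another of the 4 libraries. EGR1, a zinc finger factor of the first hour, measured 34.8 and 34.6 CPM in the vehicle libraries and 15.7 and 16.3 CPM in the EGF libraries (log2 fold change -1.12 ± 0.086, edgeR adjusted p = 1.16e-12). Its level at 1 h had been 82.3 and 85.1 CPM with vehicle and 1114 and 1145 CPM with EGF, so the direction at 12 h was the opposite of that at 1 h. FOS, a subunit of AP-1, went the same way, with 4.33 and 3.45 CPM in the vehicle libraries and 1.93 and 1.97 CPM in the EGF libraries at 12 h (log2 fold change -1.01 ± 0.19, edgeR adjusted p = 0.000156). The vehicle level of FOS at 12 h was itself above T0 (log2 fold change 1.80, edgeR adjusted p = 1.2e-07). With EGF it was below vehicle but was not called lower than T0.

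EGR3 rose, with 0.745 and 0.790 CPM in the vehicle libraries and 2.47 and 3.11 CPM in the EGF libraries (log2 fold change 1.85 ± 0.30, edgeR adjusted p = 1.15e-05), while EGR1 and FOS were below vehicle in the same libraries. KLF2, a Kruppel-like factor, measured 13.1 and 14.1 CPM in the vehicle libraries and 23.2 and 25.9 CPM in the EGF libraries (log2 fold change 0.85 ± 0.081, edgeR adjusted p = 2.59e-10). MYC, a driver of growth genes, measured 34.3 and 32.98 CPM in the vehicle libraries and 39.4 and 40.8 CPM in the EGF libraries (log2 fold change 0.25 ± 0.064, edgeR adjusted p = 0.00399). The call for MYC was lost without vehicle replicate 2, where its adjusted p was 0.0562. FOSL2, another partner of JUN in AP-1, fell, with 161 and 164 CPM in the vehicle libraries and 121 and 131 CPM in the EGF libraries (log2 fold change -0.36 ± 0.050, edgeR adjusted p = 6.18e-07).

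Several genes that damp EGFR signalling were higher at 12 h. Of 23 regulators of MAP kinases and receptors, 9 rose, 2 fell and 12 did not pass, with a median log2 fold change of 0.20. Their summed level was 1045 and 1060.1 CPM in the vehicle libraries and 1609 and 1634 CPM in the EGF libraries. A large part of that sum and of its rise was DUSP4, given below. DUSP6, a phosphatase of ERK, measured 42.5 and 39.9 CPM in the vehicle libraries and 129.8 and 131 CPM in the EGF libraries (log2 fold change 1.66 ± 0.056, edgeR adjusted p = 6.51e-23). DUSP4, a nuclear phosphatase of the same family, measured 483 and 501 CPM in the vehicle libraries and 867 and 872 CPM in the EGF libraries (log2 fold change 0.82 ± 0.037, edgeR adjusted p = 3.81e-19). SPRY4, a Sprouty protein that restrains the path from receptor to Ras and Raf, measured 16.1 and 14.6 CPM in the vehicle libraries and 39.4 and 43.8 CPM in the EGF libraries (log2 fold change 1.43 ± 0.088, edgeR adjusted p = 2.98e-15). The EGF values of these 3 genes lay above every vehicle value, as in all 2273 rising genes and in 26.3% of all genes tested.

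SPRED1 and SPRED2, relatives of Sprouty that hold Ras signalling down, rose by 0.56 ± 0.092 and 0.57 ± 0.046 on the log2 scale. ERRFI1 (MIG6), which binds and inhibits EGFR and HER2, measured 29.9 and 30.1 CPM in the vehicle libraries and 42.3 and 44.6 CPM in the EGF libraries (log2 fold change 0.53 ± 0.063, edgeR adjusted p = 3.09e-08). DUSP1, the phosphatase of the first hour, did not pass, with 32.5 and 34.6 CPM in the vehicle libraries and 28.6 and 30.8 CPM in the EGF libraries (log2 fold change -0.17 ± 0.076, edgeR adjusted p = 0.124). The 2 falling members were LRIG2 and CBLB, and without EGF replicate 1 only CBLB passed, while without any other 1 of the 4 libraries only LRIG2 did.

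Of 14 ERBB receptors and ligands tested, 3 rose and 2 fell, 21.4% and 14.3% against 9.04% and 6.99% of all genes tested. Among the receptors, ERBB4 fell, with 40.7 and 39.3 CPM in the vehicle libraries and 21.2 and 21.2 CPM in the EGF libraries (log2 fold change -0.92 ± 0.076, edgeR adjusted p = 9.61e-12), and ERBB3, the receptor of HRG that needs a partner to signal, fell by 0.18 ± 0.038 on the log2 scale. EGFR measured 95.6 and 93.3 CPM in the vehicle libraries and 93.4 and 106 CPM in the EGF libraries (log2 fold change 0.07 ± 0.065, edgeR adjusted p = 0.539) and ERBB2 (HER2) 8098 and 8268 CPM in the vehicle libraries and 8244 and 8241 CPM in the EGF libraries (log2 fold change 0.01 ± 0.025, edgeR adjusted p = 0.856), and neither passed the test. Of the ligands, AREG (amphiregulin), which binds EGFR, measured 3.51 and 3.08 CPM in the vehicle libraries and 12.3 and 13.2 CPM in the EGF libraries (log2 fold change 1.94 ± 0.13, edgeR adjusted p = 9.33e-14). EPGN (epigen), another EGFR ligand, measured 0.248 and 0.333 CPM in the vehicle libraries and 0.808 and 1.09 CPM in the EGF libraries (log2 fold change 1.69 ± 0.40, edgeR adjusted p = 0.00191). EREG (epiregulin) passed the test from 0.0710 and 0.0832 CPM to 0.449 and 0.345 CPM, with its vehicle libraries at the floor, and lost it when a library was left out (adjusted p = 0.126 without vehicle replicate 1, 0.0759 without vehicle replicate 2, 0.133 without EGF replicate 1). TGFA and BTC did not pass.

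The AREG promoter is shown because AREG had the largest rise in CPM among the ligands, and the window holds a cAMP response element, TGACGTCA, in capitals (chr4:74445035-74445114 on the plus strand, RefSeq GRCh38.p14). The element was found on either strand in 2.25% of all genes with a window, in 3.14% of the tested genes with a window, in 4.05% of the rising genes with a window and in 3.38% of the falling ones.
AREG: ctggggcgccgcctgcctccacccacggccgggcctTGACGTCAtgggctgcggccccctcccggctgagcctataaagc

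Genes of sterol synthesis rose together. Of 24 members, 19 rose, with a median log2 fold change of 0.31, and the summed level was 4929.9 and 5133 CPM in the vehicle libraries and 6259 and 6443 CPM in the EGF libraries. In 1 fit of all 40 libraries the count was 12. HMGCS1, which makes HMG-CoA, measured 795 and 854 CPM in the vehicle libraries and 1180.2 and 1208 CPM in the EGF libraries (log2 fold change 0.53 ± 0.056, edgeR adjusted p = 2.46e-09). MVD, a later enzyme of the mevalonate arm, measured 127 and 139 CPM in the vehicle libraries and 196 and 188 CPM in the EGF libraries (log2 fold change 0.53 ± 0.057, edgeR adjusted p = 4.58e-09).

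SQLE, which commits squalene to sterols, rose by 0.34 ± 0.045 on the log2 scale. STARD4, a sterol carrier, measured 9.19 and 9.57 CPM in the vehicle libraries and 15.4 and 15.1 CPM in the EGF libraries (log2 fold change 0.70 ± 0.11, edgeR adjusted p = 5.3e-06). The 5 members that did not pass were MVK, PMVK, LSS, TM7SF2 and SC5D. SREBF2, the gene of the factor SREBP2 that drives this pathway, measured 254 and 263 CPM in the vehicle libraries and 287 and 292 CPM in the EGF libraries (log2 fold change 0.16 ± 0.040, edgeR adjusted p = 0.00267), a call that was lost without vehicle replicate 1 (adjusted p = 0.0695).

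Of the 19 sterol genes that rose, 13 had a promoter among the windows searched. SREBF2 was the 1 gene among them whose window held the sterol element searched, TCACNCCAC on either strand. The element was found in 1.39% of all genes with a window, 1.43% of the tested genes with one and 1.39% of the rising genes with one. The SREBF2 window is shown with that element in capitals (chr22:41832936-41833015 on the plus strand, RefSeq GRCh38.p14).
SREBF2: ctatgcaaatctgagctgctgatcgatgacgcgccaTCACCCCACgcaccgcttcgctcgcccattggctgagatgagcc

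Fatty acid synthesis followed the same direction, with 14 of 20 members higher and a median log2 fold change of 0.27. SCD, which desaturates stearate to oleate, measured 1983 and 2057 CPM in the vehicle libraries and 2646 and 2777 CPM in the EGF libraries (log2 fold change 0.42 ± 0.036, edgeR adjusted p = 1.17e-11). FASN, the synthase of palmitate, measured 3256 and 3568 CPM in the vehicle libraries and 4149 and 4050.4 CPM in the EGF libraries (log2 fold change 0.26 ± 0.034, edgeR adjusted p = 2.41e-07). ACSS2, which makes acetyl-CoA from acetate, measured 314 and 330.1 CPM in the vehicle libraries and 436 and 465 CPM in the EGF libraries (log2 fold change 0.48 ± 0.090, edgeR adjusted p = 0.000118), a call that was lost in 1 fit of all 40 libraries (adjusted p = 0.203). ELOVL6, which lengthens palmitate, rose by 0.51 ± 0.062 on the log2 scale, and SREBF1, the gene of SREBP1, by 0.18 ± 0.041.

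Genes of amino acid uptake and ribosome production rose by similar small amounts. In the amino acid and ATF4 list 12 of 25 members rose and 1 fell, NUPR1, which lost its call without vehicle replicate 2 or EGF replicate 2 and in 1 fit of all 40 libraries. In the ribosome biogenesis list 19 of 35 rose, and both lists had a median log2 fold change of 0.19. SLC7A5, the leucine transporter LAT1, measured 164 and 162 CPM in the vehicle libraries and 225 and 233 CPM in the EGF libraries (log2 fold change 0.49 ± 0.056, edgeR adjusted p = 1.36e-08), and its chaperone SLC3A2 rose by 0.36 ± 0.044 on the log2 scale. The glutamine carrier SLC1A5 measured 210.4 and 218 CPM in the vehicle libraries and 276 and 288 CPM in the EGF libraries (log2 fold change 0.40 ± 0.038, edgeR adjusted p = 3.12e-10). ASNS and CHAC1, also targets of ATF4, did not pass, at -0.26 and 0.00. GDF15, a circulating factor of cell stress, measured 0.603 and 0.499 CPM in the vehicle libraries and 2.78 and 3.36 CPM in the EGF libraries (log2 fold change 2.45 ± 0.28, edgeR adjusted p = 1.76e-08).

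Among ribosome biogenesis genes, NOP56, a core protein of box C/D particles, measured 157 and 156 CPM in the vehicle libraries and 197 and 195 CPM in the EGF libraries (log2 fold change 0.33 ± 0.044, edgeR adjusted p = 4.61e-07). NOLC1, a nucleolar chaperone of RNA polymerase I and snoRNPs, measured 135 and 134 CPM in the vehicle libraries and 167 and 176 CPM in the EGF libraries (log2 fold change 0.34 ± 0.043, edgeR adjusted p = 9.87e-08). NPM1 (nucleophosmin) rose by 0.28 ± 0.039 and NCL (nucleolin) by 0.19 ± 0.033 on the log2 scale. The RNA polymerase I subunits POLR1A, POLR1B, POLR1C and POLR1E did not pass the edgeR test, with log2 fold changes of 0.12, 0.13, 0.12 and 0.19, nor did its activator UBTF, at -0.03. POLR1A and POLR1B were borderline (edgeR adjusted p = 0.0801 and 0.0902) and passed in some of the alternative settings.

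Luminal and steroid receptor genes moved in both directions, 7 of 23 up and 5 down. Those that fell include the steroid receptors PGR and ESR1, the estrogen-induced coactivator GREB1 and the luminal lineage factor GATA3. PGR, the progesterone receptor, measured 644 and 638 CPM in the vehicle libraries and 349 and 373 CPM in the EGF libraries (log2 fold change -0.83 ± 0.053, edgeR adjusted p = 9.63e-15). ESR1, the estrogen receptor, measured 119 and 116 CPM in the vehicle libraries and 78.6 and 86.5 CPM in the EGF libraries (log2 fold change -0.51 ± 0.052, edgeR adjusted p = 8.6e-10). GREB1, a cofactor and target of the estrogen receptor, measured 233 and 233 CPM in the vehicle libraries and 160.1 and 169 CPM in the EGF libraries (log2 fold change -0.50 ± 0.052, edgeR adjusted p = 1.6e-09). In all 3 genes both EGF libraries lay below both vehicle libraries, as in 1756 of the 1757 falling genes and in 28.9% of all genes tested.

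GATA3 measured 562 and 566 CPM in the vehicle libraries and 446 and 446 CPM in the EGF libraries (log2 fold change -0.34 ± 0.037, edgeR adjusted p = 5.55e-09). FOXA1, a pioneer factor of the estrogen receptor, measured 648 and 648 CPM in the vehicle libraries and 621 and 632 CPM in the EGF libraries and did not pass (log2 fold change -0.05 ± 0.037, edgeR adjusted p = 0.447). Not all estrogen-responsive genes fell: TFF1, a secreted trefoil peptide, rose from 51.03 and 46.8 CPM to 66.8 and 71.9 CPM (log2 fold change 0.50 ± 0.064, edgeR adjusted p = 1.62e-07). AGR2, a secreted-pathway disulfide isomerase, measured 348 and 343 CPM in the vehicle libraries and 558 and 566 CPM in the EGF libraries (log2 fold change 0.70 ± 0.036, edgeR adjusted p = 8.09e-18), and CA12, a carbonic anhydrase, rose by 0.34 ± 0.050 on the log2 scale.

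**Figure D3:**
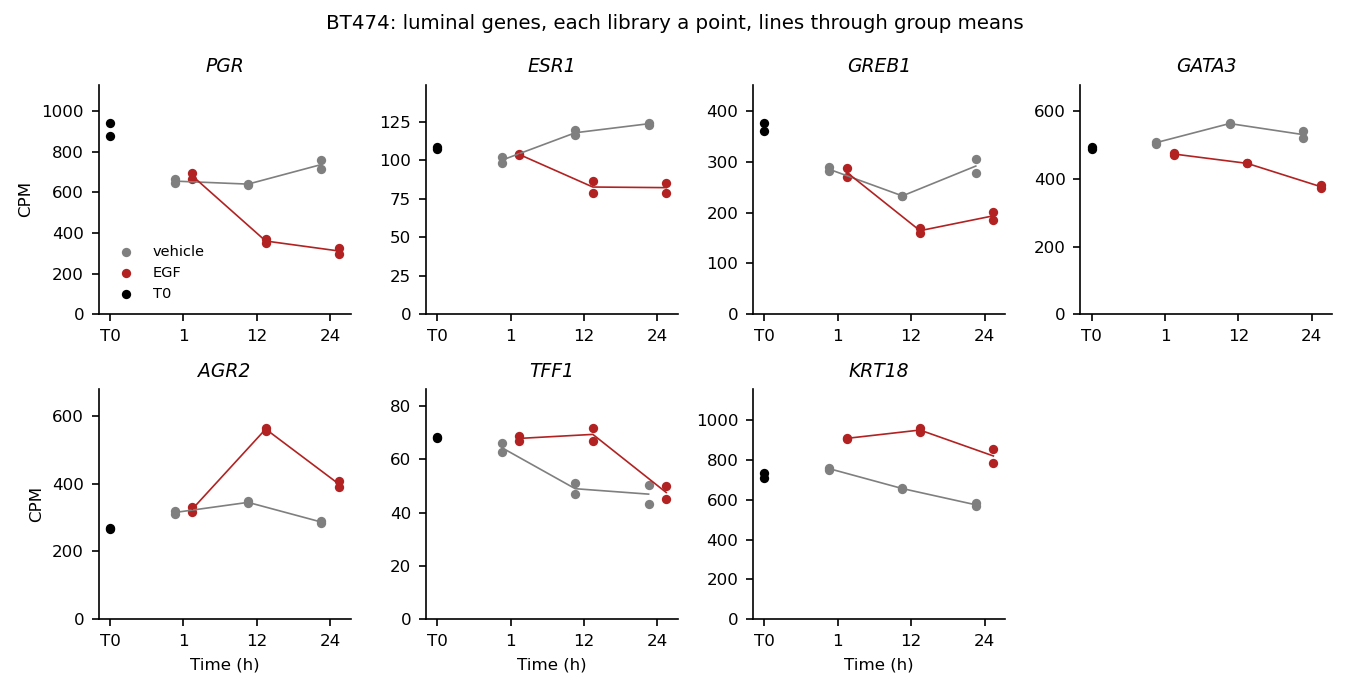
Level in CPM, from 0, of 7 luminal genes in BT474 at T0 (black) and after 1, 12 and 24 h of vehicle (grey) or EGF (red), each library a point and the lines through group means. PGR, ESR1, GREB1 and GATA3 lie below vehicle at 12 h and 24 h, while AGR2 and KRT18 lie above it at both, and TFF1 lies above it at 12 h and overlaps it at 24 h.

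The genes of the luminal plot were followed over time. PGR had fallen in the vehicle libraries too, from 877 and 943 CPM at T0 to 644 and 638 CPM at 12 h, and was lower again with EGF. ESR1 measured 109 and 107 CPM at T0, so its vehicle level was above and its EGF level below that of the untreated cells. At 1 h 0 of the 23 luminal genes tested passed in edgeR or DESeq2, and 1 had an unadjusted p below 0.05 in edgeR. The log2 fold change at 1 h was 0.06 for PGR and 0.05 for ESR1.

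Many keratins rose, 8 of the 14 tested. In the list of keratins and epithelial to mesenchymal markers 9 of 24 members rose and 2 fell, with a median log2 fold change of 0.52. Of the simple epithelial keratins, KRT8 measured 1531 and 1581 CPM in the vehicle libraries and 2079 and 2122 CPM in the EGF libraries (log2 fold change 0.43 ± 0.030, edgeR adjusted p = 8.84e-14) and its partner KRT18 654 and 659 CPM in the vehicle libraries and 939 and 963 CPM in the EGF libraries (log2 fold change 0.53 ± 0.036, edgeR adjusted p = 3.64e-14). KRT7 and KRT19 rose by 0.52 ± 0.035 and 0.37 ± 0.030 on the log2 scale. KRT80, a keratin of cell margins, measured 40.8 and 45.4 CPM in the vehicle libraries and 87.1 and 86.5 CPM in the EGF libraries (log2 fold change 1.01 ± 0.054, edgeR adjusted p = 2.95e-17). KRT15, KRT16 and KRT17, found in basal or stressed epithelia, rose by 0.89, 2.09 and 1.78, with EGF levels of 132 and 130.3 CPM, 3.01 and 3.75 CPM and 2.02 and 2.22 CPM.

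The 2 members that fell were CDH2 (N-cadherin), with 23.95 and 22.2 CPM in the vehicle libraries and 15.3 and 15.3 CPM in the EGF libraries (log2 fold change -0.60 ± 0.094, edgeR adjusted p = 8.47e-06), and TWIST1, a factor of mesenchymal transition, with 14.4 and 15.3 CPM in the vehicle libraries and 9.07 and 8.54 CPM in the EGF libraries (log2 fold change -0.75 ± 0.10, edgeR adjusted p = 8.56e-07). EPCAM rose by 0.22 ± 0.043 on the log2 scale. CDH1 (E-cadherin) measured 1167 and 1148 CPM in the vehicle libraries and 1154 and 1170.4 CPM in the EGF libraries and VIM (vimentin) 34.2 and 34.8 CPM in the vehicle libraries and 35.5 and 35.4 CPM in the EGF libraries, and neither passed.

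In the list of proteases, integrins and laminins 12 of 26 tested members rose. ITGB6, which pairs with the alpha v integrin and activates latent TGF-beta, had the largest fold among those that passed, with 40.99 and 36.8 CPM in the vehicle libraries and 129.9 and 128 CPM in the EGF libraries (log2 fold change 1.73 ± 0.064, edgeR adjusted p = 7.21e-22). ITGB4, the integrin of hemidesmosomes, measured 66.3 and 66.9 CPM in the vehicle libraries and 108 and 109 CPM in the EGF libraries (log2 fold change 0.71 ± 0.048, edgeR adjusted p = 4.03e-14). LAMB3, a chain of the laminin to which that integrin binds, rose by 0.80 ± 0.13 on the log2 scale. TIMP1, an inhibitor of matrix metalloproteinases, measured 3.51 and 2.75 CPM in the vehicle libraries and 9.74 and 9.13 CPM in the EGF libraries (log2 fold change 1.58 ± 0.14, edgeR adjusted p = 5.96e-11). Of the metalloproteinases, MMP13 rose by 1.23 ± 0.28, and MMP1, MMP3, MMP7, MMP9 and MMP10 had too few counts to be tested.

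Channels and carriers rose in 11 of 20 members. AQP3, the water and glycerol channel, measured 1.35 and 1.54 CPM in the vehicle libraries and 16.3 and 16.3 CPM in the EGF libraries (log2 fold change 3.50 ± 0.17, edgeR adjusted p = 3.13e-18). KCNN4, a calcium-activated potassium channel, measured 11.99 and 11.5 CPM in the vehicle libraries and 19.3 and 21.6 CPM in the EGF libraries (log2 fold change 0.79 ± 0.090, edgeR adjusted p = 1.47e-08). Among the mucins 3 of 9 rose and 1 fell, 33.3% and 11.1% against 9.04% and 6.99% of all genes tested. MUC5B, a secreted gel-forming mucin, measured 24.1 and 24.2 CPM in the vehicle libraries and 44.9 and 57.00 CPM in the EGF libraries (log2 fold change 1.07 ± 0.14, edgeR adjusted p = 1.35e-07). MUC2 and MUC5AC rose from below 1 CPM with further numbered rows under their names, so their reads may be split. The falling mucin was MUC1, which lost its call without any 1 of the 4 libraries (adjusted p from 0.0583 to 0.115) and in 1 fit of all 40 libraries (adjusted p = 0.266).

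Of 24 FOXO targets and insulin pathway genes, 10 fell and 5 rose, and the rising count was 3 without EGF replicate 2. KLHL24, a FOXO target that encodes a ubiquitin ligase adaptor, measured 73.6 and 71.1 CPM in the vehicle libraries and 37.7 and 37.8 CPM in the EGF libraries (log2 fold change -0.94 ± 0.065, edgeR adjusted p = 1.01e-13). SESN3, a sestrin that restrains mTORC1, measured 12.1 and 12.8 CPM in the vehicle libraries and 7.94 and 7.45 CPM in the EGF libraries (log2 fold change -0.69 ± 0.11, edgeR adjusted p = 6.47e-06). TNFSF10 (TRAIL), a death ligand, measured 12.1 and 11.8 CPM in the vehicle libraries and 8.26 and 8.64 CPM in the EGF libraries (log2 fold change -0.50 ± 0.10, edgeR adjusted p = 0.000333). PDK4, also a FOXO target, went the other way, with 1.67 and 2.00 CPM in the vehicle libraries and 5.12 and 3.80 CPM in the EGF libraries (log2 fold change 1.30 ± 0.21, edgeR adjusted p = 1.24e-05), and IRS1, the insulin receptor substrate, rose by 0.32 ± 0.064 on the log2 scale.

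Of 18 hypoxia-inducible genes outside glycolysis, 8 rose and 2 fell, but the rising count was 4 without EGF replicate 2, 4 in 1 fit of all 40 libraries and 5 without vehicle replicate 1. The falling members, BNIP3L and MXI1, lost their calls without vehicle replicate 1 or EGF replicate 1 and in 1 fit of all 40 libraries. VEGFA, the angiogenic growth factor, measured 103 and 102 CPM in the vehicle libraries and 155 and 164 CPM in the EGF libraries (log2 fold change 0.64 ± 0.057, edgeR adjusted p = 6.12e-11). EGLN3, an oxygen-sensing prolyl hydroxylase, measured 77.9 and 78.2 CPM in the vehicle libraries and 158 and 175 CPM in the EGF libraries (log2 fold change 1.09 ± 0.076, edgeR adjusted p = 1.01e-13). BHLHE40, a repressor that also responds to growth factors, measured 11.9 and 11.6 CPM in the vehicle libraries and 20.5 and 26.1 CPM in the EGF libraries (log2 fold change 0.99 ± 0.12, edgeR adjusted p = 6.73e-08). All 3 kept their call in each of those runs.

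Ephrin receptors changed in opposite directions, with 4 of 22 list members higher and 6 lower, and 6 became 3 without EGF replicate 1 and 4 without another of the 4 libraries. EPHA2 rose, with 8.59 and 9.48 CPM in the vehicle libraries and 16.2 and 19.2 CPM in the EGF libraries (log2 fold change 0.97 ± 0.10, edgeR adjusted p = 8.6e-10), and EPHA7 fell, with 5.22 and 4.78 CPM in the vehicle libraries and 2.20 and 2.62 CPM in the EGF libraries (log2 fold change -1.06 ± 0.18, edgeR adjusted p = 3.77e-05). In the retinoic acid list 4 of 17 rose and 3 fell. The rising and falling shares were 18.2% and 27.3% in the ephrin list and 23.5% and 17.6% in the retinoic acid list. Over all genes tested they were 9.04% and 6.99%. ALDH1A3, which makes retinoic acid, measured 2.66 and 2.62 CPM in the vehicle libraries and 8.57 and 9.97 CPM in the EGF libraries (log2 fold change 1.81 ± 0.16, edgeR adjusted p = 2.9e-11). CYP26A1, which breaks it down, measured 2.09 and 1.91 CPM in the vehicle libraries and 0.583 and 0.543 CPM in the EGF libraries (log2 fold change -1.82 ± 0.32, edgeR adjusted p = 4.38e-05), and RARRES1, a gene named for its induction by retinoids, measured 9.69 and 10.6 CPM in the vehicle libraries and 21.3 and 21.4 CPM in the EGF libraries (log2 fold change 1.07 ± 0.10, edgeR adjusted p = 2.19e-10).

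Other lists were near the background shares or rested on few genes. Among Wnt targets 2 of 19 rose (DKK1 and WNT7B) and 1 fell, LEF1, a DNA-binding partner of beta-catenin, with 4.15 and 3.83 CPM in the vehicle libraries and 1.53 and 1.04 CPM in the EGF libraries (log2 fold change -1.63 ± 0.23, edgeR adjusted p = 1.44e-06). Among interferon-stimulated genes 1 of 31 rose (ISG20) and 2 fell (STAT2 and IFIH1, the latter at an adjusted p of 0.0655 without vehicle replicate 1). In the endoplasmic reticulum folding list 3 of 18 rose and 1 fell. In the YAP and TEAD list 2 of 15 rose and 5 fell, but 1 library left out left at most 1 rising and 2 to 4 falling. In the lysosome and autophagy list 1 of 21 rose and 4 fell, with 1 or 2 falling when any 1 library was left out, GABARAPL1 among them in each case (23.4 and 20.05 CPM in the vehicle libraries and 13.6 and 13.03 CPM in the EGF libraries).

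At 1 h EGF had raised 1.65% of all genes tested and lowered 0.533%, and at 24 h 9.71% and 6.65%. The 1 h count of 550 genes was 342 to 447 and the 24 h count of 4113 was 2562 to 3909 when 1 library was left out, lowest without vehicle 1 h replicate 2 and vehicle 24 h replicate 2. Each time point has its own vehicle libraries. Of the 2273 genes that rose at 12 h, 145 (6.38%, or 34.9% of those that rose at 1 h) had also risen at 1 h and 1562 (68.7%, or 64.0% of those that rose at 24 h) also rose at 24 h. Of the 1757 that fell, 23 (1.31%, or 17.2%) had fallen at 1 h and 931 (53.0%, or 55.7%) fell at 24 h. Opposite calls were few, with 6 genes up and 19 genes down at 12 h against 1 h, and 4 up and 6 down against 24 h.

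The lists had different counts at the 3 time points. Immediate early factors rose in 22 of 24 cases at 1 h (median log2 fold change 1.63), against 7 at 12 h. At 1 h 0 S phase genes passed in edgeR or DESeq2 and 4 had an unadjusted p below 0.05 in edgeR (median 0.05), and the list rose in 38 cases at 12 h and in 33 at 24 h (median 0.27). Mitosis genes rose in 1, 12 and 25 of 25 cases, with a median at 24 h of 0.39. The single mitosis gene at 1 h lost its call without any 1 library. Sterol genes rose in 11, 19 and 19 of 24 cases, the first count being 4 to 9 when any 1 library was left out, fewest without vehicle 1 h replicate 2, and feedback genes in 8, 9 and 11 of 23. The summed mitosis level was 2258 and 2202 CPM with vehicle and 2928 and 2754 CPM with EGF at 24 h, against 2189 and 2198 CPM and 2347 and 2399.9 CPM at 12 h.

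**Figure D4:**
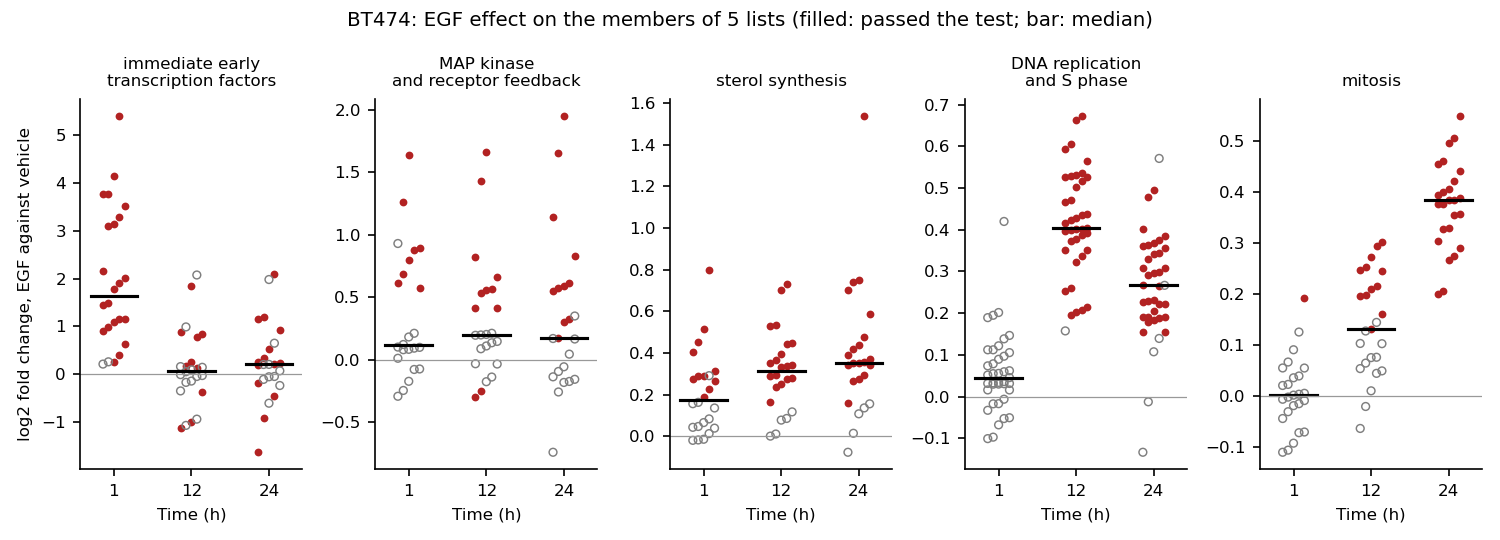
Log2 fold change of EGF against the vehicle at each time for the members of 5 lists at 1, 12 and 24 h, with filled points for genes that passed the test and a bar at the median. The median of the early factors drops from 1.63 to 0.07 between 1 h and 12 h, that of S phase genes is highest at 12 h (0.40), and that of mitosis genes at 24 h (0.39).

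The difference between the EGF effects at 24 h and 12 h was tested directly, and 0.29% of genes were higher and 0.227% lower at 24 h, 130 genes in all. That count was 49 to 88 without any 1 of the vehicle libraries or of the EGF 12 h libraries, 152 without EGF 24 h replicate 1 and 273 without EGF 24 h replicate 2. Among S phase genes 5 had a smaller effect at 24 h, and among mitosis genes 4 had a larger one, and these counts were 1 to 7 and 0 to 10 when any 1 of the 8 libraries was left out, fewest without EGF 12 h replicate 2. Of these 9 genes, MCM6 alone passed in each of those runs. MCM6, with a log2 fold change of 0.57 at 12 h, was at 0.18 at 24 h (difference -0.38, edgeR adjusted p = 0.000273). AURKA, a mitotic kinase, went from 0.16 to 0.46 (difference 0.30, edgeR adjusted p = 0.0161), and its call was lost in 6 of those 8 runs. GDF15 went from 2.45 to 5.25 (difference 2.80, edgeR adjusted p = 0.00698), a call that was lost without vehicle 12 h replicate 1 (adjusted p = 0.133) or vehicle 24 h replicate 2 (adjusted p = 0.105).

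The 12 h groups were also set against T0, the starved cells before treatment. With vehicle 3.15% of the genes tested were higher than T0 and 3.26% lower, 792 and 819 genes. With EGF 10.5% were higher and 9.5% lower, 2647 and 2388 genes. Both differences also hold the fresh medium and the further 12 h, which these comparisons do not separate. The vehicle counts together were 875 to 896, and the EGF counts together 3545 to 3707, when any 1 of the 4 libraries compared was left out. Both comparisons use the same T0 libraries, and each shares its other group with the 12 h comparison, so the values stand side by side only.

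Mitosis genes were lower than T0 in both groups. With vehicle 25 of 25 were lower than T0 (median log2 fold change -0.44) and with EGF 22 (median -0.30), from a summed T0 level of 2960.5 and 2914 CPM. S phase genes were higher than T0 in 35 of 39 cases with EGF (median 0.49), while with vehicle 9 were higher (5 to 8 when any 1 library was left out, fewest without T0 replicate 2) and 1 lower (median 0.09), from a summed T0 level of 2795 and 2757 CPM. Sterol genes were higher than T0 in 19 of 24 cases with vehicle (median 0.30) and in 23 with EGF (median 0.66). In the ribosome biogenesis list 8 of 35 members were lower than T0 with vehicle, but 1 to 2 when any 1 library was left out, and with EGF 12 were higher and 3 lower, the latter 1 to 2 when any 1 library was left out.

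HRG, the ligand of HER3 and HER4, was given at 10 ng/mL and EGF at 50 ng/mL, so the ligands are compared as dosed. The direct difference between their libraries at 12 h was higher with HRG for 1.22% and lower for 0.95% of genes, 545 in all, and 150 without EGF replicate 1, 252 without EGF replicate 2, 343 without HRG replicate 1 and 165 without HRG replicate 2. In the list of keratins and epithelial to mesenchymal markers 8 of 24 members were higher and 1 lower with HRG than with EGF, and in the mitosis list 7 of 25 were higher, but 1 to 3 when any 1 of the 4 libraries was left out. KRT17 measured 2.02 and 2.22 CPM with EGF and 8.43 and 5.67 CPM with HRG (log2 difference 1.72, edgeR adjusted p = 1.14e-06). AREG measured 12.3 and 13.2 CPM with EGF and 22.2 and 24.1 CPM with HRG (log2 difference 0.87, edgeR adjusted p = 1.84e-07). PGR and ESR1 were lower with HRG than with EGF, by log2 differences of -0.29 and -0.34. The call for PGR was lost without HRG replicate 1 (adjusted p = 0.0682) or EGF replicate 2 (adjusted p = 0.0531). In the S phase list 2 of 39 genes were higher with HRG, CCND1 and CDC6, and CDC6 lost its call without HRG replicate 1 (adjusted p = 0.0563) or EGF replicate 2 (adjusted p = 0.113).

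In BT474R the EGF effect at 12 h differed from that in BT474 for 484 genes, 0.929% of genes higher and 1.03% lower in BT474R, and for 258 to 325 when any 1 of the 8 libraries was left out. Among S phase genes 11 of 39 had a smaller effect in BT474R, with a median difference of -0.25, but 0 to 5 did when any 1 of the 8 libraries was left out, fewest without EGF replicate 2 of BT474R. MCM3 differed by -0.35 (edgeR adjusted p = 0.0176) from its 0.42 in BT474, and its call was lost in 6 of those 8 runs (adjusted p up to 0.277). Among luminal genes 6 of 24 had a lower effect in BT474R, GATA3 by -1.46 (edgeR adjusted p = 1.28e-08) and ESR1 by -0.75 (edgeR adjusted p = 0.000114). Immediate early factors had a higher effect in BT474R in 10 of 24 cases, MYC by 1.75 (edgeR adjusted p = 7.32e-09), and interferon-stimulated genes in 20 of 31, counts that were 5 to 10 and 16 to 20 in those runs, the first fewest without EGF replicate 1 of BT474R. GATA3, ESR1 and MYC passed in all of them.

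Of the 30 genes of largest fold change in BT474, the difference between lines passed for ALDH1A3, FIBCD1, CBLN2 and KRT16. ALDH1A3, 2.66 and 2.62 CPM to 8.57 and 9.97 CPM in BT474, was 14.6 and 13.5 CPM to 27.3 and 27.8 CPM in BT474R, a log2 difference of -0.85 (edgeR adjusted p = 0.00801), lost in 3 of the 8 runs that left out 1 library (adjusted p up to 0.0965). KRT16 was 1.24 and 1.64 CPM to 17.4 and 16.03 CPM in BT474R, a log2 difference of 1.41 (edgeR adjusted p = 0.0451), a call lost in all 8 of those runs (adjusted p up to 0.297). The call was lost for FIBCD1 without vehicle replicate 1 of BT474 (adjusted p = 0.162) and for CBLN2 without EGF replicate 2 of BT474R (adjusted p = 0.0713). PDE10A and CYP26A1 were at the floor in all BT474R libraries at 12 h, and EPHA3 and PTPRQ were at the floor there after EGF, so no fold is given for these 4.

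**Figure D5:**
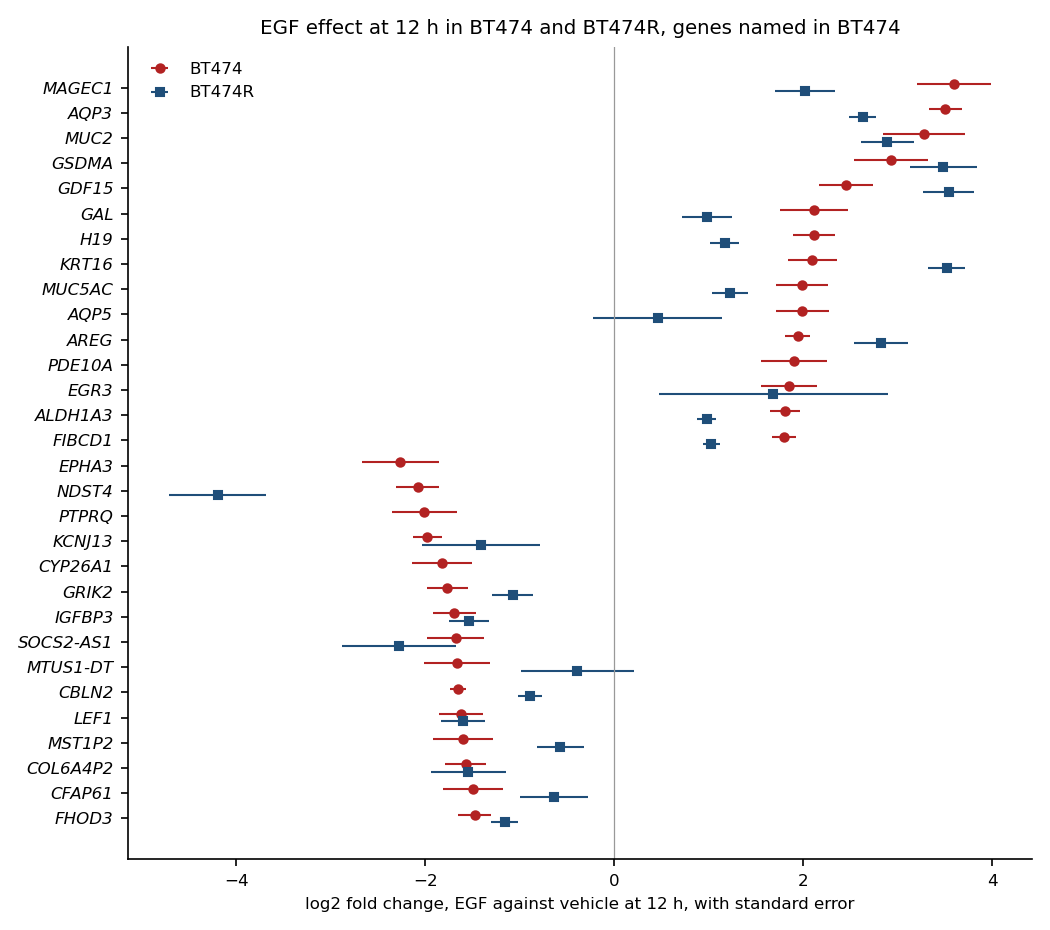
Log2 fold change of EGF against vehicle at 12 h, with its standard error, for the 30 genes of largest fold change in BT474 (red circles) and the same genes in BT474R (blue squares). The circles come from the fit of the 20 BT474 libraries and the squares from the fit of all 40, so their error bars rest on different fits. Squares are left out for the 4 genes at the floor in BT474R, and the other 26 genes lie on the same side of 0 in both lines, and 20 of them passed the test in BT474R.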

How the data were processed

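RNA-seq was performed on 40 libraries, 2 in each of 20 groups. Per the labels and the study's methods, RNA was extracted with RNeasy columns and DNase, libraries were made with the Kapa mRNA HyperPrep kit and sequenced as paired ends, and the submitters' processing notes name FastQC, MultiQC, Trim Galore 0.6.6, featureCounts and the GRCh38.p13 build. How featureCounts was set for strand and for reads with several matches, and which annotation it used, are not given in the sources used here. The authors deposited whole-number counts per gene, not normalized, for 44584 row names, of which 5078 repeat a gene name with an added number and hold 2.96% of the counts. These rows were kept as separate genes.

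Groups were taken from the labels. The counts as deposited were analysed in R 4.3.3 with edgeR 4.0.16, with TMM scaling and quasi-likelihood F tests (two-sided), over all 20 BT474 libraries for the 25146 genes with 1 count or more in 50% or more of them. The difference between lines and the EGF effect in BT474R were fitted over 40 libraries (24641 genes). Values after ± are standard errors, worked out as the size of the log2 fold change divided by the square root of F. P-values were adjusted by Benjamini-Hochberg over all genes tested, at a threshold of 0.05. Intervals for depth are limited to the floor of 3 counts given with the libraries. On simulated counts for 25146 genes in the 12 h comparison, changes were placed only in genes with a mean of at least 1 CPM. On the log2 scale 67 genes were changed by 0.5, 67 by 1 and 66 by 2, far fewer than were called in the data. Of these genes, 64.2%, 97.0% and 100% were called, with 13 false calls. Detection below 1 CPM was not simulated.

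Genes were named by these rules: the 15 per direction with the largest fold change among called genes with a mean of at least 1 CPM and groups that did not overlap, the 8 per direction with the largest difference in mean CPM, members of 24 gene lists, and the 5 per direction with the largest change in each further comparison. Numbered copies and names starting with LOC or LINC were left out of the naming, which passed over 3 rising and 2 falling genes of the first rule. The comparison, its gene lists and its tests were chosen with earlier results of these data known. Some genes held by the lists are counted with them but not reported here by name. Promoter windows came from RefSeq, leaving out those on chromosome 8, so genes there count as having no window. A gene with several windows was counted as holding a motif if any of them held it. The alternatives were DESeq2 1.42.0, its size factors, other filters, thinning to equal depth, summed copies, the replicate number as a block, smaller and larger fits, and leaving out each library.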

Additional observations from a re-analysis of the deposited data

Results flagged for a closer look

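The EGF effect differed between 12 h and 24 h, by the test of the difference itself, for 34 of the genes named by rule or held by a list (edgeR adjusted p from 1.07e-07 to 0.0414). GDF15, RN7SK, PTGS1, FAM177B, BPIFA2, ADCY2, RAB31, MS4A7, ARHGAP6 and PCDH7 entered by rule, as genes of largest difference in this same test. The 34 therefore do not measure how common such differences were. Among all genes tested, 0.29% had a higher effect at 24 h and 0.227% a lower one. The values in parentheses are the log2 effect at 24 h minus that at 12 h. Among cell cycle genes it was higher at 24 h for AURKA (0.30), CCNB1 (0.29), TOP2A (0.28) and CENPF (0.27) and lower for E2F1 (-0.40), MCM6 (-0.38), MCM5 (-0.37), UNG (-0.34) and MCM3 (-0.27). Among the other genes it was higher at 24 h for GDF15 (2.80), RN7SK (2.27), PTGS1 (2.22), FAM177B (2.05), BPIFA2 (1.96), DHRS3 (1.82), H19 (1.34), ACSS2 (0.64), RNR1 (0.47), DUSP4 (0.32), SCNN1A (0.30) and FDPS (0.30). It was lower for ADCY2 (-1.51), RAB31 (-1.15), MS4A7 (-1.08), ARHGAP6 (-1.01), PCDH7 (-1.01), IGFBP5 (-0.59), CD44 (-0.50), TFF1 (-0.48), PGR (-0.41), RARA (-0.38), COL12A1 (-0.31), FLNA (-0.23) and AGR2 (-0.23). When 1 library was left out, the call held throughout for DHRS3, DUSP4, FLNA, IGFBP5, MCM6, PGR, PTGS1 and RN7SK, and was lost in at least 1 case for the others. The count of all genes with such a difference, 130, ran from 49 to 273 in those runs.

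The EGF effect at 12 h differed between BT474R and BT474, by the same kind of test, for the 15 genes below (edgeR adjusted p from 7.32e-09 to 0.0451), given here as the log2 effect in BT474R minus that in BT474. It was higher in BT474R for PARP10 (3.52), MYC (1.75), KRT16 (1.41), CBLN2 (0.75) and STS (0.66), and lower for RHBDL3 (-1.61), IGSF21 (-1.54), CA2 (-1.47), GATA3 (-1.46), ALDH1A3 (-0.85), FIBCD1 (-0.79), ESR1 (-0.75), IGFBP5 (-0.51), ABCC3 (-0.49) and MCM3 (-0.35). The 15 come from the genes of largest change in BT474, examples given with the lists, and genes of largest difference between lines, which enter by rule. Most list members are not in this count. With them, 20 of 31 interferon-stimulated and 10 of 24 immediate early genes were higher, and 11 of 39 S phase and 6 of 24 luminal genes lower. Over all genes tested 0.929% were higher and 1.03% lower in BT474R. Genes at the floor in either BT474R group were left out of the 15. The call held without any 1 library for ABCC3, ESR1, GATA3, IGSF21, MYC, PARP10 and STS, and was lost in at least 1 case for the others.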

How the results depend on the processing

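With 2 libraries a group, single libraries weighed most on the counts of called genes (edgeR adjusted p below 0.05). When 1 library was left out, the remaining library of its group being assumed to vary like the other groups, the count at 12 h was 2594 to 2760 in place of 4030, that at 1 h 342 to 447 in place of 550, and that at 24 h 2562 to 3909 in place of 4113. The count for the difference between 24 h and 12 h was 49 to 273 in place of 130, and that between the lines 258 to 325 in place of 484. The count for HRG against EGF at 12 h was 150 to 343 in place of 545. Against T0 it was 3545 to 3707 in place of 5035 for EGF and 875 to 896 in place of 1611 for vehicle. Fewer libraries were fitted in these cases.

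Under the other settings the count at 12 h ran from 3281 (DESeq2, 65.6% of calls higher against 56.4%) to 4821 (a fit of the 4 libraries alone). Without the filter on low counts the difference between 24 h and 12 h had 230 calls, and with DESeq2 93, of which 43.0% were higher at 24 h against 56.2% in edgeR. No named gene called at 12 h changed direction in any setting, and 137 of the 156 genes of the text called at 12 h passed in all 14 settings. Of 109 calls of genes named for the other 7 comparisons, 49 were lost when at least 1 library was left out, among them 26 of 34 for the difference between 24 h and 12 h, 11 of 20 for the difference between lines and 7 of 15 for HRG against EGF. Same-numbered libraries did not deviate together (correlation of their deviations at 12 h between EGF and vehicle -0.043), and with the replicate block the count at 12 h was 4221, or 4643 with a replicate block for each time point.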
